A study of Mus musculus with 10 samples.

Results

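Bone morphogenetic protein (BMP) ligand genes were followed in adult mouse right atrium with and without removal of the T-box transcription factor Tbx5. The group was chosen by gene symbol and holds Bmp1, Bmp2, Bmp3, Bmp4, Bmp5, Bmp6, Bmp7 and Bmp10, which are 8 of the 23337 genes of the deposited table. All 8 were in the table, and 7 of them passed the expression filter that kept 13084 genes. RNA-seq had been made from the right atria of 4 mice labelled control and 6 mice labelled as having Tbx5 removed. In the latter, called Tbx5 mutant here, a Cre recombinase under the ubiquitous R26 promoter, active after tamoxifen, cuts out exon 3 of Tbx5. The labels give the controls as "Control" with no allele, and the study's text describes its control mice as carrying R26CreERt2 without floxed Tbx5. Tamoxifen was injected at 0.167 mg per day for 3 days, and atria were taken 1 week later from mice of mixed strain, given as 8 to 10 weeks old in one label and 6 to 8 weeks in another. The promoter does not limit the recombinase to heart muscle cells.

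BMPs are secreted dimers of the transforming growth factor β family that bind pairs of type I and type II receptor kinases, which phosphorylate SMAD1, SMAD5 and SMAD9. Extracellular antagonists trap the ligands, co-receptors present them, and proprotein convertases cut them from their precursors. In the adult heart Bmp10 is known as a ligand of atrial muscle, above all of the right atrium. Bmp2 and Bmp4 form one structural subgroup and Bmp5, Bmp6 and Bmp7 another, Bmp3 is known as an inhibitory member, and Bmp1, in spite of its name, encodes a tolloid metalloprotease that processes procollagens and the BMP antagonist chordin.

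The total count per library lay between 5703775 and 7095141 reads assigned to genes. The ribosomal precursor gene Rn45s took 38.9% of the reads of mutant library M3 and between 0.268% and 1.49% of the others. The sex labels of the controls went against their sex-linked genes: the controls labelled M held 10149 and 7850 reads of Xist and no read of the Y-linked gene Ddx3y, whereas those labelled F held 5 and 14 reads of Xist and 1319 and 1124 of Ddx3y. Tbx5 itself ran from 184 to 224 CPM, which are counts scaled to effective library sizes from TMM, in the controls and from 275 to 475 CPM in the mutants, a log2 fold change of 0.94 ± 0.15 (SE, edgeR adjusted p = 0.000495). The count covers the whole gene and also takes in transcripts that lack exon 3, so it does not measure the deletion. A rise is not what a loss of the whole transcript would give, and the count cannot show whether exon 3 was removed. Sln, the gene of the calcium pump regulator sarcolipin, which is known to depend on Tbx5, was lower in the libraries labelled mutant, at 927 ± 164 against 1823 ± 244 CPM (SD, log2 fold change -0.98, edgeR adjusted p = 0.000264), without overlap. Control and mutant below therefore mean the libraries so labelled, and every direction is of the libraries labelled mutant against those labelled control. Atrial muscle markers were abundant in every library, with a summed level of 64000 to 76670 CPM in controls and 48680 to 62750 CPM in mutants.

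The promoters of Bmp10, Bmp6 and Bmp4 are shown because these are the called genes with an entry in the RefSeq promoter table (GRCm38.p6), which held 4 of the 8 genes, the fourth being Bmp5. Each window runs 5′ to 3′ on the strand of the gene from 250 bases before to 50 bases after the start site. Capitals mark the core T-box motif AGGTGT or its reverse complement ACACCT, and the GATA motif AGATAA or its reverse complement TTATCT, searched on both strands. The motifs do not overlap each other.
Bmp10, chr6:87428744-87429043, plus strand: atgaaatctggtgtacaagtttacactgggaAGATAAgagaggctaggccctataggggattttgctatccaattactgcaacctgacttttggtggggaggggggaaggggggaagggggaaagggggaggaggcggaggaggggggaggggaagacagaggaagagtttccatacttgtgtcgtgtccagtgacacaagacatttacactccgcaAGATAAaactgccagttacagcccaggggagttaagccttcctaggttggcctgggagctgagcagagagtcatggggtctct
Bmp6, chr13:38345466-38345765, plus strand: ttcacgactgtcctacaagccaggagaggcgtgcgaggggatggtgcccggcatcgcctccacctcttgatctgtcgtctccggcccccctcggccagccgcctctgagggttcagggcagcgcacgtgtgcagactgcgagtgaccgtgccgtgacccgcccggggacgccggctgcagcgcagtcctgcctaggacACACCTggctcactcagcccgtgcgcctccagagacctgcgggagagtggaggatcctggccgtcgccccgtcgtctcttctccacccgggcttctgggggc
Bmp4, chr14:46390620-46390919, minus strand: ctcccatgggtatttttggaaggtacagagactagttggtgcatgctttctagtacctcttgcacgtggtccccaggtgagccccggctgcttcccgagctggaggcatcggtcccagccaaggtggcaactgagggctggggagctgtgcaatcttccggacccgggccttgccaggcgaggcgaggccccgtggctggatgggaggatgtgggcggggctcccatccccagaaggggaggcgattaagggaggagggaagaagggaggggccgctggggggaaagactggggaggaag
The Bmp10 window held 2 GATA motifs, which began 219 and 33 bases before the start site, and no T-box core. The Bmp6 window held 1 T-box core in reverse orientation, 52 bases before the start site of the RefSeq promoter table, and no GATA motif. The GENCODE M21 annotation starts Bmp6 at chr13:38345107, before this window. By that annotation the Bmp6 window and its T-box core lie inside the gene. Neither motif was found in the windows of Bmp4 and Bmp5. Of all 32851 windows of the same length, 13.7% held the T-box core and 11.2% the GATA motif, and a match is a description of letters only.

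Genes were called on an edgeR quasi-likelihood adjusted p under 0.05, a change of over 1.5-fold in either direction and a mean normalised signal over 1 in the controls. Of the 7 ligand genes tested, Bmp3 and Bmp10 were called lower and Bmp4 and Bmp6 higher in the libraries labelled mutant. Across all genes tested, 15.7% were called, 7.16% lower and 8.5% higher. The groups did not overlap for 4 of the 7 (1 lower and 3 higher), against 22.7% of all genes, 11% lower and 11.7% higher. The genes that passed included Bmp3, which passed the expression filter through its reads in the controls, so the share called among the ligands is given as a description. The median log2 fold change of the tested ligand genes was -0.64, beside -0.005 for all genes. This median is the value of Bmp10 itself, and Bmp1, Bmp4 and Bmp6 had log2 fold changes above 0.

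**Figure D1:**
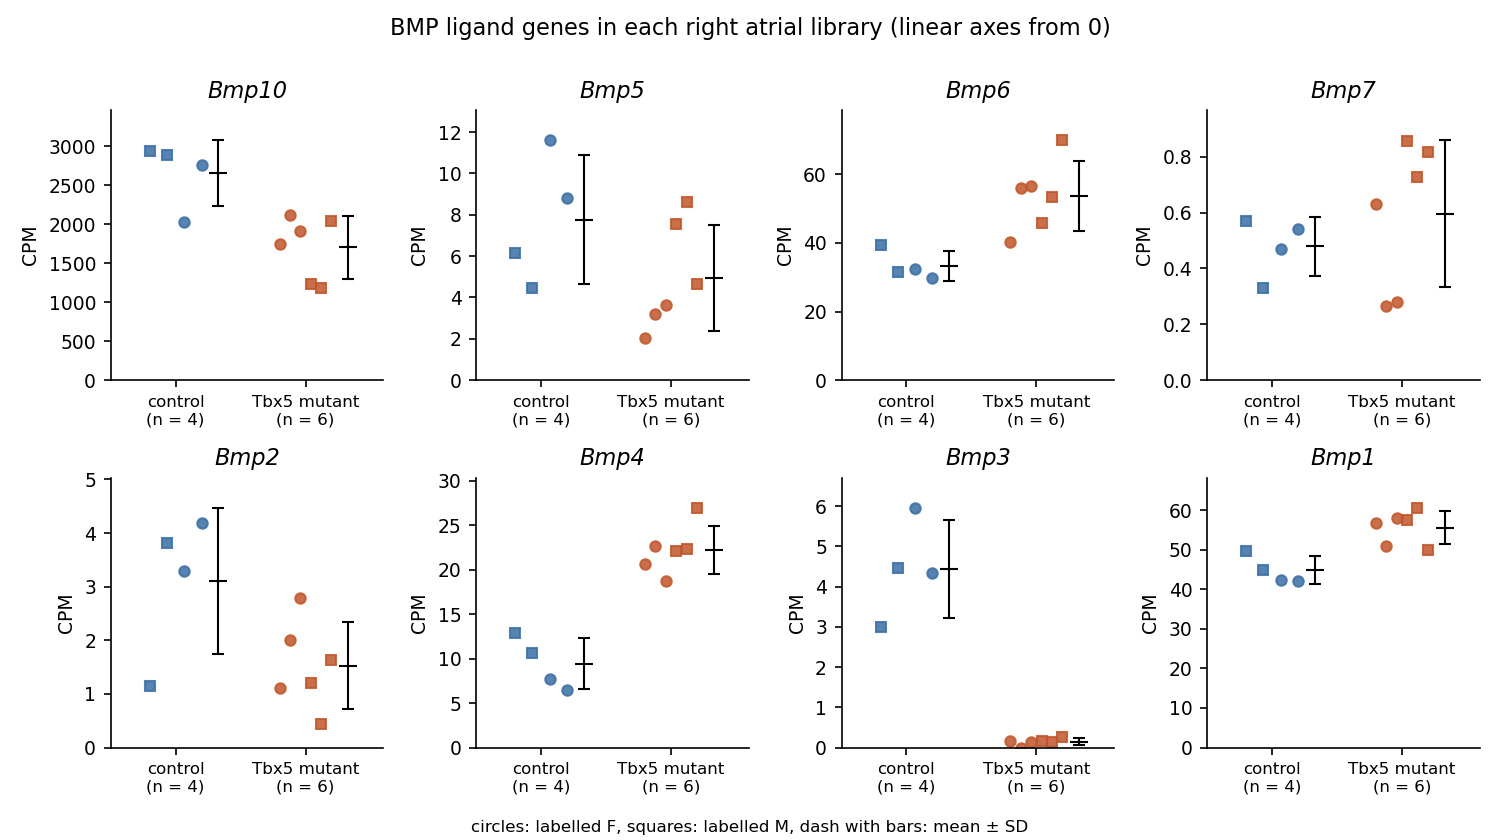
Level of each BMP ligand gene (CPM, linear axes from 0) in each library, circles for mice labelled F, squares for mice labelled M, and a dash with bars for the mean ± SD of each group. The mutants lie wholly above the controls for Bmp4, Bmp6 and Bmp1 and wholly below them for Bmp3, and the groups overlap for Bmp10, Bmp5, Bmp2 and Bmp7.

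Bmp10 lies on chromosome 6 (GRCm38, chr6:87428994-87437677, plus strand) and encodes the ligand that signals mainly through the type I receptor ALK1. It was by far the most abundant ligand transcript of the right atrium. It was measured at 2946, 2891, 2036 and 2757 CPM in controls M1, M2, F1 and F2. In the mutants it ran from 1179 CPM in M2 to 2115 CPM in F2, with a median of 1826 CPM. The groups overlapped, since mutants F2 and M3 (2037 CPM) lay just above control F1, and 4 of the 6 mutants lay below every control. The mean fell from 2658 ± 422 (SD, n = 4) to 1703 ± 405 CPM (n = 6), a log2 fold change of -0.64 ± 0.18 (SE, edgeR adjusted p = 0.0159) with a 95% interval from -1.03 to -0.25. An exact permutation test, two-sided, over the 210 divisions of the mice gave p = 0.0286. The fall lay close to the 1.5-fold threshold: it was no longer called without control M1 (-0.58, edgeR adjusted p = 0.0484), without mutant M1 (-0.58, 0.0230) or without mutant M2 (-0.55, 0.0298), where the adjusted p held and the fold did not. After removal of a trend on transcript length it was -0.57 and also missed the fold. In the mice labelled F alone the log2 fold change was -0.32, with an edgeR adjusted p of 0.159, but that fit sets controls with Ddx3y reads against mutants with Xist reads. By sex-linked reads the mean of Bmp10 was 2397 CPM in controls and 1483 CPM in mutants with Ddx3y reads, and 2918 and 1923 CPM in those with Xist reads.

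Muscle markers moved beside Bmp10. Of the 6 atrial cardiomyocyte markers, Myl7, Nppa and Sln were called lower and Tnnt2 higher, and their summed level did not overlap between the groups. In that sum Nppa made up 26830 CPM in the controls and 17110 CPM in the mutants on average. Myl4 was lower under the fold threshold (-0.44, edgeR adjusted p = 0.0217), without overlap. Myl7, the atrial myosin light chain, went from 6372 to 960 CPM on average, and Myh6, the atrial myosin heavy chain, was at 24100 ± 5619 and 25810 ± 3679 CPM (SD). Of the 4 ventricular markers, Myl3 (log2 fold change 3.92, from 45.4 to 688 CPM on average) and Myl2 (2.10) were called higher. Myh7 was not called (0.92, edgeR adjusted p = 0.208), with overlap, and Irx4 was at or near 0. The summed level of the 4 was 189 to 294 against 785 to 1586 CPM. Of the 5 sinoatrial node markers, Hcn4 (-1.88) and Tbx3 (-1.07) were called lower, with a sum of 31.4 to 50.8 against 24.8 to 33.4 CPM. Shox2 (0.19, edgeR adjusted p = 0.804) and Tbx18 (-0.18, 0.368) were not called, and Isl1 was not tested. Tbx18 made up 24.5 CPM of that sum in the controls and 21.6 CPM in the mutants on average. The part of these muscle cell types in the Bmp10 values was not tested. In bulk tissue, fewer cells of a type and less RNA per cell cannot be told apart.

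Bmp3 (chr5:98854415-98884396, plus strand) encodes a member of the family known to oppose the osteogenic BMPs. It was a low transcript in controls and was nearly absent from the mutants. It had 21, 27, 38 and 32 reads in controls M1, M2, F1 and F2, and in the mutants a single read in each library except F2, which had 0 reads. The same values are 3.00, 4.47, 5.96 and 4.33 CPM in the controls, and 0 to 0.272 CPM with a median of 0.152 CPM in the mutants. The groups lay far apart, and every mutant lay under the level of 3 reads, which is between 0.40 and 0.817 CPM in the mutant libraries. Summed over libraries, 118 reads stood against 5, a ratio of 32.9 with an exact 95% interval from 13.7 to 103 that covers counting error only. The fitted log2 fold change was -4.85 ± 0.39 (SE, edgeR adjusted p = 1.66e-06), and the exact permutation test gave p = 0.00952, the smallest this design can reach. The size of that fitted change depends on the prior count and was -2.51 with a prior of 5. Among the 13084 tested genes, 4 had a lower log2 fold change. Bmp3 passed the expression filter through its reads in the controls, so its call, its p-values and this rank are descriptions.

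Bmp4 (chr14:46383520-46390669, minus strand) encodes a ligand of the BMP2/4 subgroup with an early role in heart field and valve formation. Its level was more than doubled in the mutants. It was measured at 12.9, 10.6, 7.68 and 6.50 CPM in controls M1, M2, F1 and F2, from 48 to 90 reads. In the mutants it ran from 18.7 CPM in F3 to 27.0 CPM in M3, with a median of 22.2 CPM. All 6 mutants lay above all 4 controls. The mean rose from 9.41 ± 2.87 (SD, n = 4) to 22.2 ± 2.74 CPM (n = 6), which was 2.35-fold, with a log2 fold change of 1.23 ± 0.17 (SE, edgeR adjusted p = 0.000168) and a 95% interval from 0.86 to 1.61. The exact permutation p was 0.00952. Bmp4 was called in each of 28 settings other than the main one. An antisense gene, Gm15217, overlaps Bmp4 exons, but it had at most 2 reads in any library.

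Bmp6 (chr13:38345107-38500302, plus strand) encodes a ligand best known from endothelial cells as a regulator of iron metabolism. It was measured at 39.4, 31.4, 32.5 and 29.8 CPM in controls M1, M2, F1 and F2. In the mutants it ran from 40.2 CPM in F1 to 70.0 CPM in M3, with a median of 54.8 CPM. The groups did not overlap, although mutant F1 was within 1 CPM of control M1. The mean rose from 33.3 ± 4.25 (SD, n = 4) to 53.7 ± 10.2 CPM (n = 6), which was 1.61-fold, with a log2 fold change of 0.68 ± 0.14 (SE, edgeR adjusted p = 0.0026), a 95% interval from 0.38 to 0.99 and an exact permutation p of 0.00952. In the mice labelled M alone, where the controls carry Xist and the mutants Ddx3y reads, it was 0.66, with an edgeR adjusted p of 0.0698. Some exons of Bmp6 overlap those of Txndc5 on the other strand, which make up 4.55% of the stretches of 50 bases in Bmp6 transcripts. Txndc5 was also higher, at 168.6 to 232 CPM against 132 to 142 CPM (log2 fold change 0.47, edgeR adjusted p = 0.00242). Whether reads were counted by strand is not given in the sources used here, so reads of the shared stretch cannot be told apart.

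Bmp1 (chr14:70474558-70520234, minus strand), the tolloid protease, was measured at 49.7, 44.8, 42.3 and 42.1 CPM in controls M1, M2, F1 and F2. In the mutants it ran from 49.8 CPM in M3 to 60.6 CPM in M2, with a median of 57.0 CPM. All mutants lay above all controls, but mutant M3 and control M1 were nearly level. The log2 fold change was 0.31 ± 0.089 (SE, edgeR adjusted p = 0.0162, 95% interval 0.12 to 0.50, exact permutation p = 0.00952). At 1.24-fold it stayed under the fold threshold and was not called, and without control F1 the edgeR adjusted p was 0.0521.

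Bmp2 (chr2:133552159-133562885, plus strand), the closest relative of Bmp4, had few reads. It was measured at 1.14, 3.81, 3.29 and 4.20 CPM in controls M1, M2, F1 and F2, from 8 to 31 reads. In the mutants it ran from 0.437 CPM in M2 to 2.79 CPM in F3, with a median of 1.42 CPM and 3 to 20 reads. The groups overlapped through control M1. The log2 fold change was -1.0 ± 0.41 (SE), with a 95% interval from -1.89 to -0.11, an edgeR adjusted p of 0.0808 and an exact permutation p of 0.0952. Bmp2 was called lower without control M1 (-1.27, edgeR adjusted p = 0.0254) and without mutant F3 (-1.28, 0.0363), so its place on either side of the threshold depended on those libraries. Bmp4 and Bmp2 thus had log2 fold changes of opposite sign, of which that of Bmp4 passed the test.

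Bmp5 (chr9:75775364-75900310, plus strand), the closest relative of Bmp6 and Bmp7 in these lists, was measured at 6.14, 4.47, 11.6 and 8.80 CPM in controls M1, M2, F1 and F2. In the mutants it ran from 2.05 CPM in F1 to 8.59 CPM in M2, with a median of 4.13 CPM. The groups overlapped. The log2 fold change was -0.66 ± 0.35 (SE, edgeR adjusted p = 0.174), with a 95% interval from -1.42 to 0.10 and an exact permutation p of 0.162. Of the stretches of 50 bases in Bmp5 transcripts, 46.2% are shared with other annotated genes, 6 in all. The antisense gene Gm26903, which is not in the table, overlaps Bmp5 exons.

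Bmp5 was also read by sex. With the labels as given, mutants labelled F lay at 2.05 to 3.62 CPM and controls labelled F at 8.80 and 11.6 CPM, while mutants labelled M lay at 4.63 to 8.59 CPM and controls labelled M at 4.47 and 6.14 CPM. The log2 fold change was -1.76 (edgeR adjusted p = 0.00141) in the mice labelled F and 0.41 (0.405) in those labelled M. Ordered by sex-linked reads, Bmp5 was higher in the libraries with Ddx3y reads in both groups, at 8.80 and 11.6 against 4.47 and 6.14 CPM in the controls, and at 4.63 to 8.59 against 2.05 to 3.62 CPM in the mutants. With the sex labels of the controls exchanged, the log2 difference of M over F was 1.10 ± 0.21 (SE), with an edgeR adjusted p of 0.0707 that missed the threshold (unadjusted 0.000162). Across all genes 0.168% passed that test. In the fit with sex so exchanged, the mutant effect on Bmp5 was -0.65 with an edgeR adjusted p of 0.0306, which passed and called the gene lower.

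**Figure D2:**
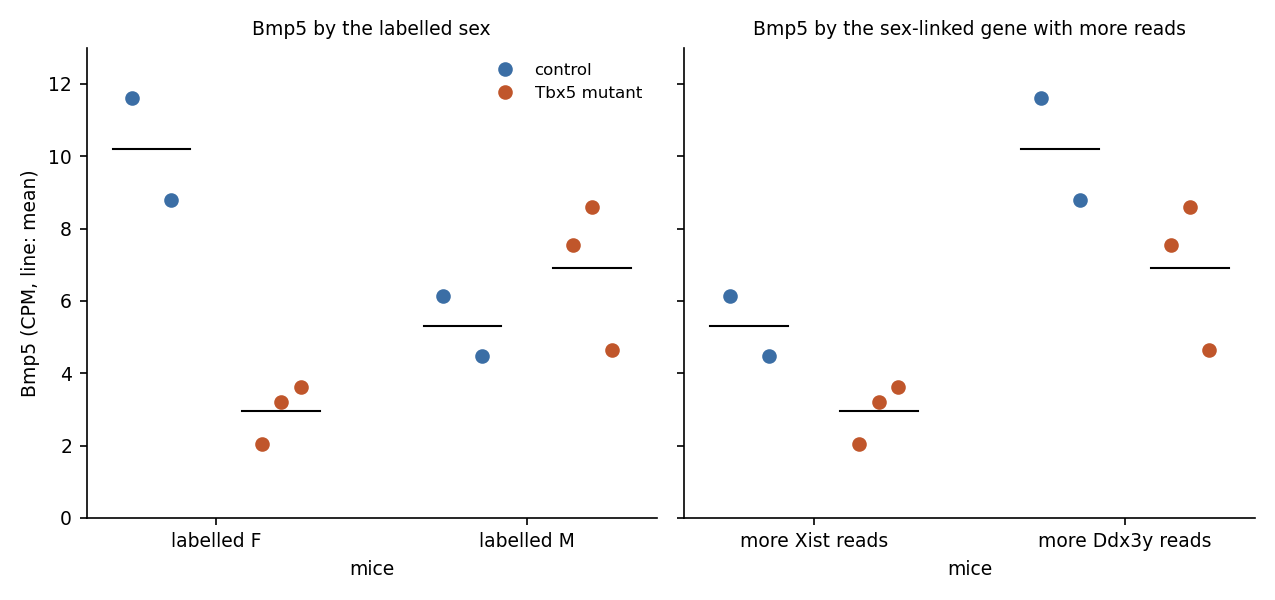
Bmp5 level (CPM) in each library by genotype label, split on the left by the labelled sex and on the right by whether Xist or Ddx3y had more reads, with lines at the means. On the right the mutant mean is the lower in both classes, 2.96 against 5.31 CPM and 6.92 against 10.2 CPM, whereas on the left the order differs between the labelled sexes.

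Whether the mutant effect differed between the sexes was tested by the interaction term. By the labels none of the 7 tested ligand genes had an edgeR adjusted p under 0.05, beside 0.29% of all genes, while 2 had an unadjusted p under 0.05, and limma gave the same counts. With the control sex labels exchanged none passed, beside 0.00764% of all genes, and 1 had an unadjusted p under 0.05. Bmp5 came nearest, at 2.18 on the log2 scale with an edgeR adjusted p of 0.0661 by the labels, and at 0.33 with 0.894 after the exchange. For Bmp4 the interaction was -0.54 (edgeR adjusted p = 0.476) by the labels and 0.92 (0.275) after the exchange.

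Bmp7 (chr2:172868012-172940321, minus strand), known from kidney and eye development, was at the limit of detection. It had 2 to 4 reads in each control and 2 to 5 reads in each mutant, which is 13 and 21 reads in all. It did not pass the expression filter and was not tested by the model. The exact permutation p was 0.581, and no fold is given at this depth.

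Levels were then compared between the genes per length, as CPM per kilobase of the longest annotated transcript. In the controls Bmp10 stood at 592 ± 94.0 CPM per kilobase (SD), followed by Bmp6 at 9.26 ± 1.18, Bmp1 at 8.34 ± 0.660, Bmp4 at 4.56 ± 1.39, Bmp5 at 2.03 ± 0.818, Bmp2 at 0.875 ± 0.383, Bmp3 at 0.672 ± 0.183 and Bmp7 at 0.130 ± 0.0292. The ranges of Bmp6 and Bmp1 overlapped, as did those of Bmp5 and Bmp2 and those of Bmp2 and Bmp3, and the other neighbours in this order lay apart. In the mutants the order was Bmp10 at 379 ± 90.3 CPM per kilobase, Bmp6 at 15 ± 2.85, Bmp4 at 10.8 ± 1.33, Bmp1 at 10.4 ± 0.792, Bmp5 at 1.29 ± 0.675, Bmp2 at 0.430 ± 0.228, Bmp7 at 0.163 ± 0.0716 and Bmp3 at 0.0224 ± 0.0132. Bmp4 was above Bmp1 in 3 of the 6 mutants and in none of the controls. Bmp6 was above Bmp4 in all 10 libraries, and Bmp3 changed from above Bmp7 in every control to below it in every mutant. Among 12951 genes ranked per length, Bmp10 was 39th in the controls and 94th in the mutants.

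The mix of ligand transcripts shifted accordingly. Over the 7 ligands without the protease Bmp1, Bmp10 made up 97.1% ± 0.585 (SD, n = 4) of the summed CPM per kilobase in the controls and 92.9% ± 1.78 (n = 6) in the mutants, with ranges of 96.2 to 97.5% and 90.3 to 94.6%. The 6 other ligands together stood at 17.5 ± 1.70 CPM per kilobase in the controls and at 27.6 ± 4.0 in the mutants, again without overlap. Within those 6, the share of Bmp6 was 52.8% ± 2.03 and 53.9% ± 3.92, that of Bmp4 was 25.7% ± 6.08 and 39.2% ± 3.69, and that of Bmp5 was 11.7% ± 4.95 and 4.67% ± 2.44. The ratio of Bmp10 to Bmp4 per length ran from 105 to 195 in the controls and from 24.3 to 47.0 in the mutants. These shares are built from the genes described above and are not further tests.

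**Figure D3:**
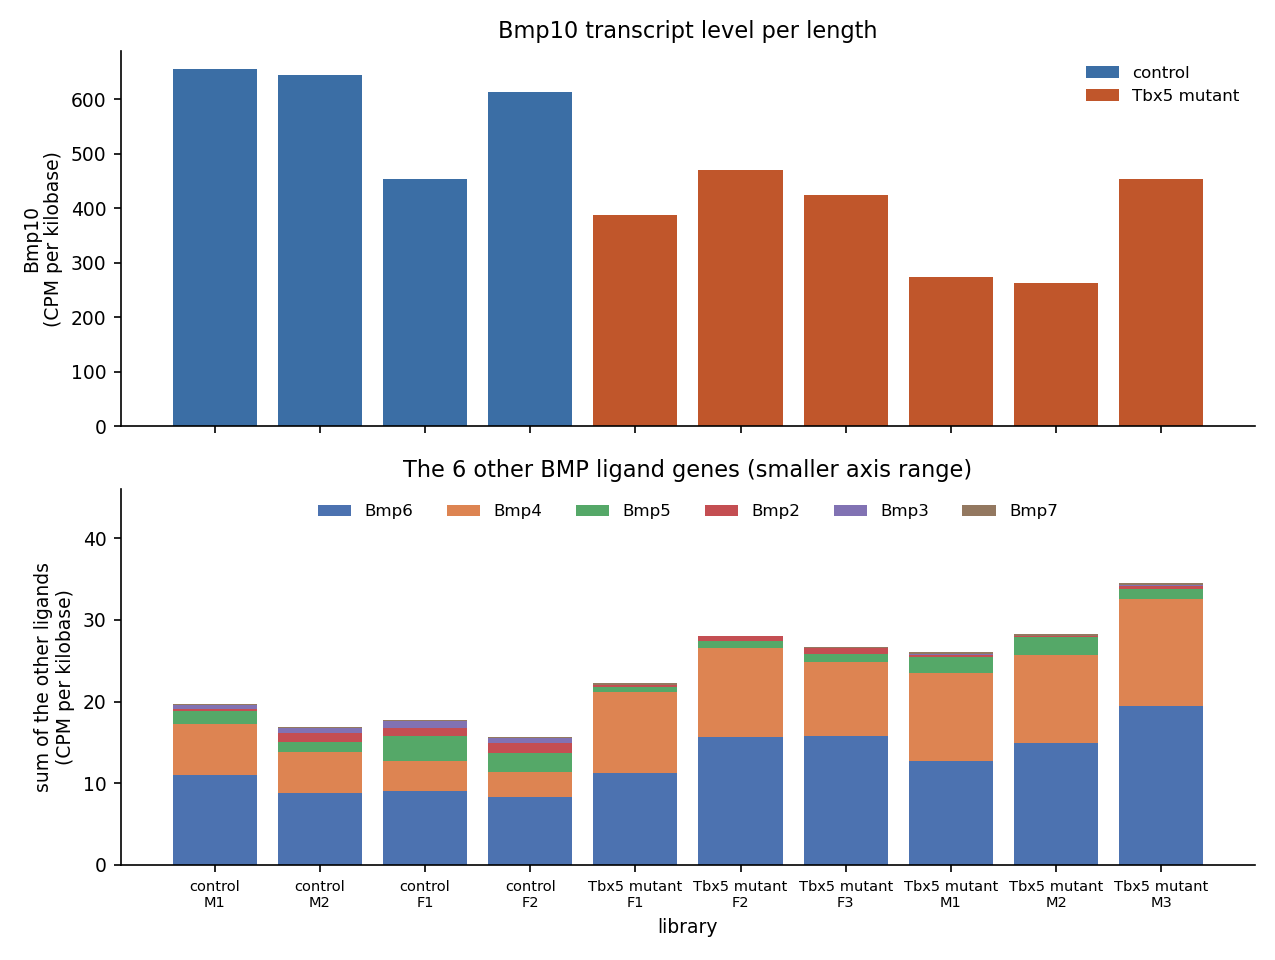
Level per length (CPM per kilobase, bars from 0) of Bmp10 in each library above, and of the 6 other BMP ligand genes stacked below on a smaller axis range. The stacked sum is 15.7 to 19.7 in the controls and 22.3 to 34.5 in the mutants, where Bmp6 and Bmp4 make up most of each bar.

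Bmp4, Bmp6 and Bmp1 were measured in tissue whose cell type markers also differed between the groups. Of the 6 fibroblast markers, the collagen genes Col1a1 and Col3a1 were called higher. Pdgfra was lower under the fold threshold (-0.40, edgeR adjusted p = 0.0152) and Dcn was at -0.01 (0.952). Tcf21 (0.57, edgeR adjusted p = 0.0618) and Lum (0.45, 0.0558) were above 0 and not called. These 6 markers thus did not move alike. Their summed level, of which Col3a1 made up 1433 CPM in the controls and 3459 CPM in the mutants on average, was 3418 to 4578 CPM in the controls and 5377 to 8219 CPM in the mutants. Of the 5 smooth muscle and pericyte markers, 2 were called higher (Acta2 and Tagln), and the sum was 242 to 304 against 323 to 730 CPM. In that sum Acta2 made up 72.4 CPM in the controls and 286.5 CPM in the mutants on average. Rgs5 (-0.22, edgeR adjusted p = 0.181), Myh11 (0.23, 0.552) and Pdgfrb (0.41, 0.0137) were not called. Of the 7 leukocyte markers, 4 of the 5 tested were called higher, and the sum was 323 to 531 against 533 to 784 CPM. The endothelial and endocardial sum overlapped, at 1569 to 2252 against 1642 to 2190 CPM. In that sum Npr3 made up 742 CPM in the controls and 606 CPM in the mutants on average (-0.29, edgeR adjusted p = 0.149). None of its 7 markers was called. Of the 7, 1 had an edgeR adjusted p under 0.05, namely Emcn, which was higher under the fold threshold (0.55, 0.0132). No marker of these lists was at or under 3 reads in every library. The part of these cell types in the BMP ligand values was not tested.

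The rest of the pathway was read from 8 lists of 89 further genes, of which 68 were tested. Across the lists 7 genes were called lower and 10 higher, which is 25% of those tested beside 15.7% of all genes, with a median log2 fold change of -0.05. Of the 10 called higher, 4 came from the tolloid and procollagen processing list, and Inha, called lower, is not a BMP. The lists were chosen with earlier results of these data known, so the share called is a description.

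**Figure D4:**
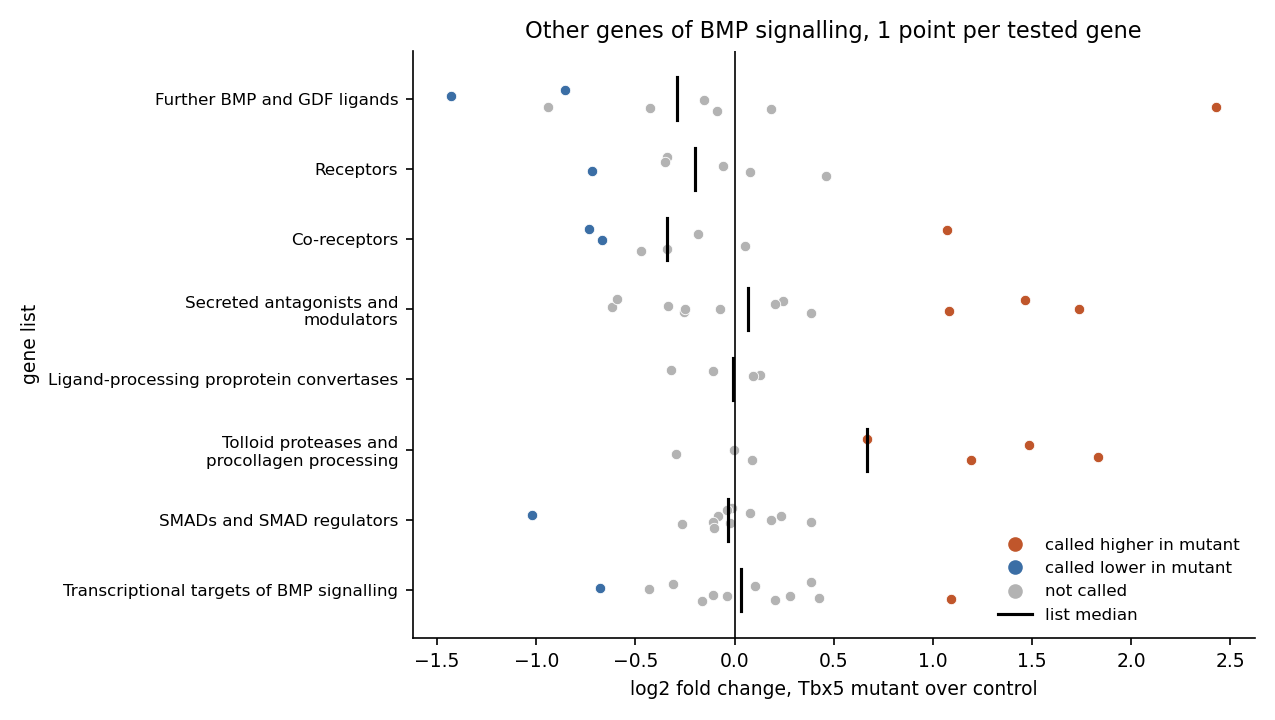
Log2 fold change (mutant over control) of each tested gene of 8 lists of BMP signalling and related genes, coloured by call, with a black line at each list's median. The median is above 0.5 for the tolloid and procollagen processing list and within 0.35 of 0 for the other lists.

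Among 18 further ligand genes, 8 were tested, 2 were called lower and 1 higher, with a median log2 fold change of -0.29. Gdf6, a relative of Bmp2 and Bmp4 known from joint and eye formation, rose from 0.271 to 1.00 CPM in the controls (2 to 7 reads) to 1.87 to 5.10 CPM in the mutants (median 3.24). Its log2 fold change was 2.43 ± 0.42 (SE, edgeR adjusted p = 0.000719), but Gdf6 passed the expression filter through its reads in the mutants, so that its call, counted among the 10 higher, is a description. Gdf7, of the same subgroup, fell from 2.14 to 5.01 CPM to 0.800 to 1.75 CPM (median 1.25), with a log2 fold change of -1.43 ± 0.32 (edgeR adjusted p = 0.00466). It had 14 to 37 reads in the controls and 3 to 12 in the mutants. Gdf7 passed the expression filter through its reads in the controls, so its call, counted among the 7 lower, is a description too. Inha, the inhibin alpha subunit, which is not a BMP, fell from 7.71 to 10.7 CPM to 2.91 to 7.06 CPM (-0.85 ± 0.23, edgeR adjusted p = 0.0132).

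Of 7 receptor genes, 6 were tested and 1 was called, with a median of -0.20. Acvr2b, a type II receptor shared with activins, had 2.30 to 3.64 CPM in the controls and 1.25 to 2.45 CPM in the mutants (log2 fold change -0.72 ± 0.26, edgeR adjusted p = 0.0456), with overlap, and DESeq2 did not call it. Bmpr2 (-0.34, edgeR adjusted p = 0.00427), the main BMP type II receptor, and Acvr2a (-0.35, 0.0406) were lower and Acvrl1, the ALK1 receptor of Bmp10, was higher (0.46, 0.00594), all under the fold threshold. Bmpr1a, the most abundant receptor, ran from 233 to 255 CPM in the controls and from 238 to 299 CPM in the mutants (0.08 ± 0.088, edgeR adjusted p = 0.516). Of the 7 co-receptors, 2 were called lower and 1 higher, with a median of -0.34. Neo1, or neogenin, which binds the repulsive guidance molecules, fell from 217.5 to 239.8 CPM to 117 to 160.1 CPM (-0.73 ± 0.096, edgeR adjusted p = 9.27e-05). Hfe2, or hemojuvelin, a co-receptor of Bmp6 in iron control, fell from 119 to 191 CPM to 87.1 to 122 CPM (-0.67 ± 0.13, edgeR adjusted p = 0.0015). Bambi, a pseudoreceptor without a kinase domain, rose from 24.1 to 32.8 CPM to 43.1 to 104.6 CPM (1.07 ± 0.21, edgeR adjusted p = 0.002).

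Of 19 antagonists and modulators, 12 were tested and 3 were called higher, with a median of 0.07. Fstl1, a secreted follistatin-like glycoprotein made by stromal cells, rose from 255 to 449.5 CPM to 860.1 to 1251 CPM (median 934), with a log2 fold change of 1.47 ± 0.19 (SE, edgeR adjusted p = 7.87e-05). Fstl3, which binds activins more than BMPs, rose from 1.88 to 4.57 CPM to 5.14 to 9.76 CPM (1.08 ± 0.24, edgeR adjusted p = 0.00443). Sost, or sclerostin, known mainly as a Wnt inhibitor, rose from 1.08 to 2.48 CPM to 2.68 to 10.6 CPM (1.74 ± 0.35, edgeR adjusted p = 0.00215). It had 8 to 15 reads in the controls and 17 to 62 in the mutants. Sost passed the expression filter through its reads in the mutants, so its call is a description. The 3 genes lay above the controls in every mutant. Of the 4 ligand-processing convertases none was called by edgeR, DESeq2 or limma, and 1 had an unadjusted p under 0.05. Furin, the main one, ran from 68.6 to 103 CPM in the controls and from 54.2 to 84.0 CPM in the mutants (-0.32 ± 0.14, edgeR adjusted p = 0.0894).

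The tolloid and procollagen processing list, the company of Bmp1, had 7 tested genes, of which 4 were called higher, with a median of 0.67. Lox, which crosslinks collagen and is activated by BMP1, rose from 4.70 to 9.76 CPM to 20.7 to 35.5 CPM (1.83 ± 0.20, edgeR adjusted p = 1.96e-05). Adamts2, a procollagen N-proteinase, rose from 37.3 to 65.3 CPM to 111 to 166 CPM (1.48 ± 0.17, edgeR adjusted p = 3.61e-05). Adamts14, of the same kind, rose from 1.49 to 2.67 CPM to 2.72 to 6.62 CPM (1.19 ± 0.25, 0.00301), and Pcolce, an enhancer of the BMP1 reaction, from 86.0 to 115 CPM to 130.1 to 217 CPM (0.67 ± 0.14, 0.00308), both edgeR adjusted p. Adamts14 had 9 to 19 reads in the controls. It passed the expression filter through its reads in the mutants, so its call is a description. The collagen genes of the fibroblast list moved with this list and Pdgfra and Dcn did not, as given above. Tcf21 and Lum had log2 fold changes above 0 and were not called. The part of fibroblasts in these values was not tested.

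Of 12 tested SMADs and SMAD regulators 1 was called, with a median of -0.03. Smad9, a receptor-activated SMAD of the BMP branch, fell from 21 to 25.9 CPM to 7.86 to 14.3 CPM (-1.02 ± 0.15, edgeR adjusted p = 0.000279), with no overlap. Smad1, its relative, was at 0.39 (edgeR adjusted p = 0.0259), under the fold threshold. Skil, a repressor of SMAD signalling, ran from 108 to 122 CPM and from 102 to 152 CPM (0.18 ± 0.11, 0.231). Of 14 transcriptional targets, 12 were tested, 1 was called lower and 1 higher, with a median of 0.03. Hey1, a repressor that also answers to Notch, fell from 29.0 to 49.5 CPM to 17.0 to 32.9 CPM (-0.68 ± 0.19, edgeR adjusted p = 0.0149), with overlap. Hand2, a heart transcription factor, rose from 10.1 to 20.2 CPM to 22.3 to 47.1 CPM (1.09 ± 0.22, edgeR adjusted p = 0.00235), without overlap.

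The fold changes of the ligand genes kept their sign in most of the other settings. Bmp4 and Bmp3 passed the test in every alternative fit in which they were tested, 25 and 24 fits. Their log2 fold changes ran from 1.01 to 1.55 and from -5.50 to -2.51. A prior count of 5 alters the fold change only, so that fit repeats the adjusted p of the main one. Bmp3 passed the expression filter through its reads in the controls, so its passes are a description. Without mutant M3, the library rich in Rn45s, 2 ligand genes were again called lower and 2 higher.

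**Figure D5:**
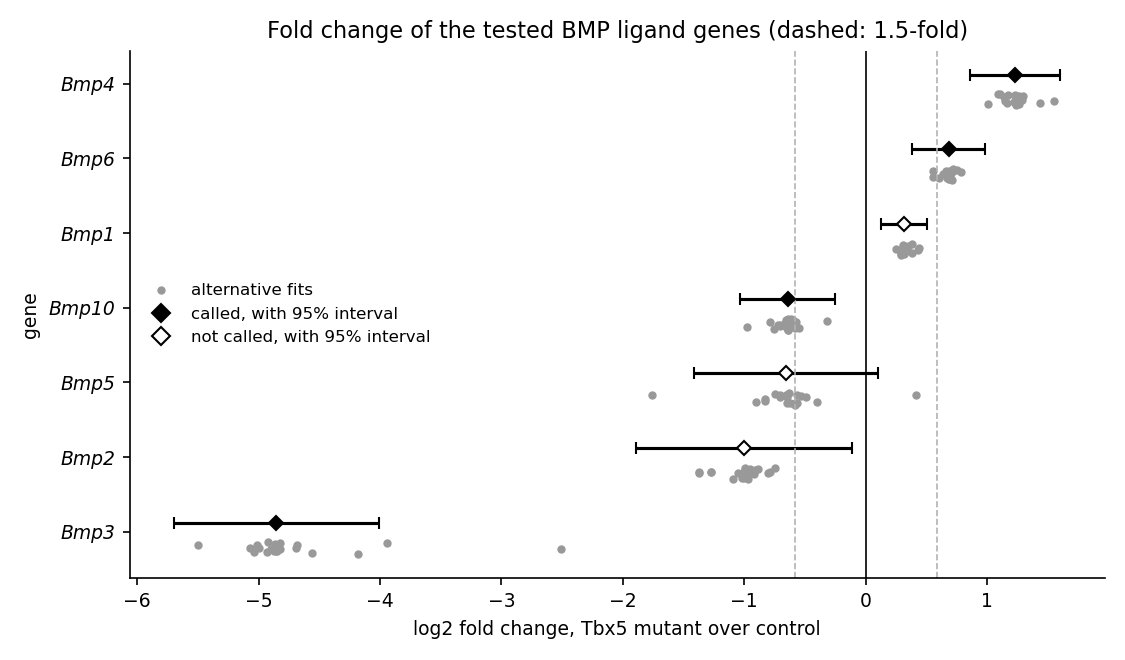
Log2 fold change (mutant over control) of the 7 tested BMP ligand genes with its 95% interval, filled where called, and grey points for the alternative fits. Bmp4 and Bmp6 stay above 0 and Bmp10, Bmp2 and Bmp3 below it, and Bmp5 has 1 alternative fit above 0, at 0.41.

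Libraries of a group also differed in how the ligand genes deviated from the group mean. Over the 10 libraries, the deviations of Bmp5 and Bmp10 had a Pearson r of -0.77 and those of Bmp1 and Bmp2 of -0.66, the furthest from 0 among 21 pairs. All points share the library and its scaling, so these are descriptions. The genes named next were picked for the highest r among all other tested genes. A search of that size over 10 libraries gives high values by selection, so they are descriptions too. By the same measure the gene most like Bmp10 was 9430091E24Rik (r = 0.94), followed by Cd46 and Lrrc16a (0.94 and 0.93). Those most like Bmp4 were Tm4sf1 (0.98), Mtmr11 (0.97) and Exd1 (0.94), and those most like Bmp6 were Gabarapl1 (0.92), Stk25 (0.89) and Tcf3 (0.89). Bmp5 was followed most closely by Mal (0.95), Asb5 (0.94) and Hamp (0.93), Bmp2 by Gpr157 (0.98), Gata6 (0.95) and A730020M07Rik (0.94), and Bmp1 by Samsn1 (0.96), Lipe (0.94) and Sec16b (0.91). For Bmp3, with at most 1 read per mutant, the genes were Timm44 (0.94), Igfbpl1 (0.92) and Casq2 (0.92). Of these neighbouring genes, Hamp, which encodes the iron hormone hepcidin, had the log2 fold change furthest from 0, at -3.09 (edgeR adjusted p = 0.000235).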

How the data were processed

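Right atrial RNA-seq libraries of 10 mice were analysed from 1 table that the authors deposited for the series. It holds raw counts of reads per gene and library, and a normalised signal, which the authors made by dividing counts by a size factor per library. The authors also deposited columns of their own comparison (a log2 fold change, a score, a p-value and a ratio), which were not used. The submitters' processing notes name FastQC, TopHat2 2.0.11, featureCounts, DESeq2 and mm10. Every per-library column was matched to a sample. The study's text describes left atria with this protocol, whereas the labels give right atria.

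Counts were fitted with edgeR 4.0.16 (R 4.3.3): expression filter, TMM scaling, prior count 0.125 and the quasi-likelihood test of group, no covariate, on all libraries, with Benjamini-Hochberg adjustment over the 13084 genes tested. Calls used the study's thresholds (adjusted p under 0.05, fold over 1.5, mean control signal over 1). The SE was derived from the log2 fold change and its F statistic. Single genes were also compared by two-sided exact permutation of log2 CPM, whose smallest p is 0.00952. Lengths came from GENCODE M21 (GRCm38) for 22857 genes. Libraries held 5703775 to 7095141 counts, and 3 reads, taken as the floor, are 0.40 to 0.817 CPM. Without molecular identifiers, such limits cover counting error alone. Each label names a separate mouse by sex and number, and nothing else marks separate cultures or days. No pair of libraries of a group was a duplicate (chi-square per degree of freedom at least 3.78 over 21 pairs).

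On simulated counts for this comparison, 186 of 200 genes changed 2-fold were recovered and 4 others called among 13084 genes. The simulation gave every gene the same fixed dispersion, not estimated from these libraries, and changed only genes above a minimum mean count. It therefore checks the code and does not give the recovery or the false calls in the real libraries. All 8 ligand genes are named. From each pathway list up to 4 called genes with the smallest adjusted p are named, plus the most abundant where fewer than 2 were called, and the 3 genes most like each ligand. Bmpr2, Acvr2a, Acvrl1, Smad1 and the cell type markers were named after their values were seen. Ligands and lists were chosen with earlier results of these data known. Alternatives were other scalings, filters, priors and thresholds, DESeq2 1.42.0, limma 3.58.1, sex as a covariate, each labelled sex alone, a replicate block, counts without Rn45s, a length trend removed and each library left out. The tests of the sex term were added after seeing the data.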

Additional observations from a re-analysis of the deposited data

Results flagged for a closer look

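Among the BMP genes described, 3 had a library far above the rest of its group by Dixon's criterion. Of 62 groups examined this way 3 stood out, where chance gives about 3.1. Bambi, the pseudoreceptor, was at 104.6 CPM (384 reads) in mutant M3, the library in which Rn45s took 38.9% of reads, and at 43.1 to 54.9 CPM in the other mutants. Fstl1 was at 1251 CPM in mutant M2, beside 860.1 to 976 CPM in the other mutants. Lox was at 35.5 CPM in the same library M2, beside 20.7 to 25.4 CPM. All other mutants of these 3 genes also lay above every control. No ligand gene had such a library.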

How the results depend on the processing

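Over 25 alternative fits, Bmp3 and Bmp4 kept direction and threshold wherever they were tested. The fit with a prior count of 5 alters the fold change only, so its adjusted p could not differ from the main fit. Bmp3 passed the expression filter through its reads in the controls, so its result is a description. With a mean count of at least 50, Bmp2, Bmp3 and Bmp5 were not tested, and neither was Bmp2 in mice labelled M. In those mice the log2 fold change was 0.25 for Bmp1 and 0.66 for Bmp6, no longer past the threshold, and for Bmp5 it reversed to 0.41. In mice labelled F it was -1.76 for Bmp5, which then passed, and -0.32 for Bmp10, which did not. Each of these fits by labelled sex sets controls and mutants with reads of opposite sexes against each other, and by sex-linked reads Bmp10 went from 2397 to 1483 CPM and from 2918 to 1923 CPM. Bmp5 also passed with sex as a covariate and the control sex labels exchanged (-0.65). Over the alternatives the adjusted p ran from 0.00224 to 0.284 for Bmp1, 0.0254 to 0.215 for Bmp2, 0.00141 to 0.466 for Bmp5, 9.12e-05 to 0.0698 for Bmp6 and 0.00269 to 0.159 for Bmp10. Exchanging the control sex labels turned the sign of the interaction of Bmp1 (0.19), Bmp4 (0.92) and Bmp6 (0.32). The cause was not tested.

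With a replicate block Bmp2 was called at -1.37 and, together with removal of the length trend, at -1.37. Bmp6 fell under the fold threshold, which left 1 ligand gene called higher in both fits, while the count lower was 3. Same-numbered libraries did not deviate together (mean r = 0.0026), so they share only a number.

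Leaving out each library, log2 fold changes ran from 0.29 to 0.38 for Bmp1, -1.28 to -0.78 for Bmp2, -5.02 to -4.56 for Bmp3, 1.09 to 1.44 for Bmp4, -0.90 to -0.40 for Bmp5, 0.60 to 0.79 for Bmp6 and -0.75 to -0.55 for Bmp10. Ligand genes called lower then numbered 1 to 3 and higher 2, and pathway genes 5 to 8 and 9 to 10.

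Against 2 ligand genes lower and 2 higher, and 7 and 10 pathway genes, the mean count filter gave 1 ligand gene lower and 4 and 6 pathway genes. Mice labelled M gave 1 ligand gene higher and 2 pathway genes lower. Removal of the length trend gave 1 ligand gene lower. An adjusted p under 0.01 gave 1 ligand gene and 4 pathway genes lower, and a fold over 2 gave 1 ligand gene in each direction and 2 pathway genes lower. Without a fold threshold 13 pathway genes were lower. With the control sex labels exchanged 3 ligand genes were lower. Depth limits Bmp2, Bmp3 and Bmp7 most, with at most 38 reads in any library.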
